A study of Mus musculus with 16 samples.

Results

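The response of HL-1 cells to estradiol alone was examined on 6 of the 16 arrays of a study on glucocorticoid and estrogen antagonism. HL-1 is an immortalised line that was derived from an atrial tumour of a transgenic mouse and retains a cardiomyocyte phenotype. The arrays labelled E2-1, E2-2 and E2-3 came from cells given 10 nM 17β-estradiol (E2) for 6 h, and those labelled Vehicle-1, Vehicle-2 and Vehicle-3 from cells given PBS for the same time. All cells were grown in Claycomb medium, and its steroid content is not given in these sources. The 10 arrays not compared were E2-4, Vehicle-4, 4 arrays of 100 nM dexamethasone (Dex) and 4 of Dex with E2. The design states independent experiments but does not say how cultures were separated, so a p-value here measures only the spread between these arrays.

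The 6 arrays were chosen from measured values, because all of them were low in Per1, a clock gene that glucocorticoids induce. Levels are log2 signals from which the 75th percentile of each array was subtracted. Per1 stood at -0.86, -0.999 and -1.29 on E2-1, E2-2 and E2-3, against -0.96, -0.75 and -1.11 on Vehicle-1, Vehicle-2 and Vehicle-3. The arrays left out, E2-4 at 1.95 and Vehicle-4 at 1.75, were at the level of most arrays labelled Dex. These levels only describe the choice of arrays, and genes that follow Per1 were fixed by it in part.

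Estradiol acts through the nuclear receptors estrogen receptor alpha and beta, which bind DNA or other transcription factors, and through the membrane receptor GPER. Greb1 and Tff1 are classic induced targets of estrogen receptor alpha in human breast cancer cells, where GREB1 is a cofactor of the receptor and TFF1 a secreted mucosal peptide. Sfrp5 encodes a secreted antagonist of Wnt ligands. Estradiol has known effects on cardiac ion channels, calcium handling and mitochondria. The 3 markers were chosen with earlier results of these arrays known, so their values do not stand as independent evidence of a response.

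The promoters of 2 of the markers are shown because estrogen receptors bind an element made of the arm GGTCA, 3 bases of any kind (NNN) and the inverted arm TGACC. Each sequence is the 250 bases before a transcript start in RefSeq, assembly GRCm38.p6, 5′ to 3′ on the strand of the gene, with GGTCA in either orientation in capitals. The table holds 2 windows for Greb1 on the minus strand, chr12:16800887-16801136 and chr12:16757240-16757489, and 1 for Sfrp5 on the minus strand, chr19:42202253-42202502. Both Greb1 windows lie inside the annotated gene, which extends to base 16801394, so no window of its outermost start is shown.
Greb1, first window: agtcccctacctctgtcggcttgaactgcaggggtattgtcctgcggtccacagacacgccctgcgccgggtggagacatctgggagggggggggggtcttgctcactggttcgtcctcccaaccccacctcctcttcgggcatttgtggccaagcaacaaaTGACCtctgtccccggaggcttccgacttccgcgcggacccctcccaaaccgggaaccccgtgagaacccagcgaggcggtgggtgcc
Greb1, second window: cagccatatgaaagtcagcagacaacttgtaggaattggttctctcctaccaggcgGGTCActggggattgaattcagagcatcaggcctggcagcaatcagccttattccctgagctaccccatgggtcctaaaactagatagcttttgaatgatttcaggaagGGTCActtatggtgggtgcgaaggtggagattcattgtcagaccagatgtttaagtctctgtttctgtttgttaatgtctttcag
Sfrp5: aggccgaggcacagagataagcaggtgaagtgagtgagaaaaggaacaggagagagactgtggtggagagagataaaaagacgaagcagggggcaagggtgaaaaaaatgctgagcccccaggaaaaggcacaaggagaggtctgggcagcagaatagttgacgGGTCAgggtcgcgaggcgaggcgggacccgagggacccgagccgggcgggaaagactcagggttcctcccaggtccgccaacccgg
The arm began at position -88 in the first Greb1 window, at -194 and -85 in the second, and at -86 in the Sfrp5 window, counted back from the start. The full element was in 0 of these windows. Over 32851 promoter windows of the same length, on both strands, the arm was in 35.24% and the full element in 0.0639%.

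Tff1, at chr17:31161395-31165060, was higher on every E2 array than on every vehicle array, near the limit of detection. It stood at -4.96, -5.05 and -4.92 on E2-1, E2-2 and E2-3, against -5.96, -5.84 and -5.96 on Vehicle-1, Vehicle-2 and Vehicle-3. The groups did not overlap, and the spread within each was small, with means of -4.98 ± 0.06 on E2 arrays and -5.92 ± 0.07 on vehicle arrays (SD, n = 3 each). The difference was 0.94 ± 0.21 on the log2 scale (SE), or 1.92-fold. The unadjusted p of 0.0025 and the Benjamini-Hochberg adjusted p of 0.835, from limma over 17776 genes, left it uncalled. The probe was well above background on 3 of 3 E2 arrays and 2 of 3 vehicle arrays, and the lowest signal that counted as well above background lay between -6.35 and -5.82 across the 6 arrays.

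Sfrp5, at chr19:42197971-42202252, was also higher on all 3 E2 arrays and its signal passed the background test on all 16 arrays. It stood at -3.09, -3.10 and -3.09 on the E2 arrays, against -3.39, -3.91 and -3.79 on the vehicle arrays. The E2 arrays lay within 0.01 of each other and above the highest vehicle array, Vehicle-1. The difference was 0.60 ± 0.18 (SE), or 1.52-fold, with an unadjusted p of 0.0116 and a limma adjusted p of 0.835.

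Greb1, at chr12:16670615-16801394, overlapped between the groups because of Vehicle-3. It stood at -1.17, -1.45 and -1.64 on the E2 arrays, against -2.29, -2.29 and -1.26 on Vehicle-1, Vehicle-2 and Vehicle-3. Vehicle-1 and Vehicle-2 lay below every E2 array, whereas Vehicle-3 lay above E2-2 and E2-3 and 1.03 above the mean of the other vehicle arrays. The difference over all 6 arrays was 0.52 ± 0.29 (SE), with an unadjusted p of 0.116 and a limma adjusted p of 0.835. Without Vehicle-3 it was 0.86. On slide 2, the slide that carried Vehicle-3 with E2-1 and E2-2, it was -0.06, and Vehicle-3 lay between those E2 arrays, so no clear direction was left.

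Slides bear on all comparisons here. Each slide held 4 arrays, and Vehicle-1 and Vehicle-2 were on slide 1, Vehicle-3, E2-1 and E2-2 on slide 2, and E2-3 on slide 4. On slide 2, E2-1 and E2-2 minus Vehicle-3 was 0.95 for Tff1 and 0.69 for Sfrp5, so these 2 differences were as large within the slide. Position on the slide and label cannot be told apart there.

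**Figure D1:**
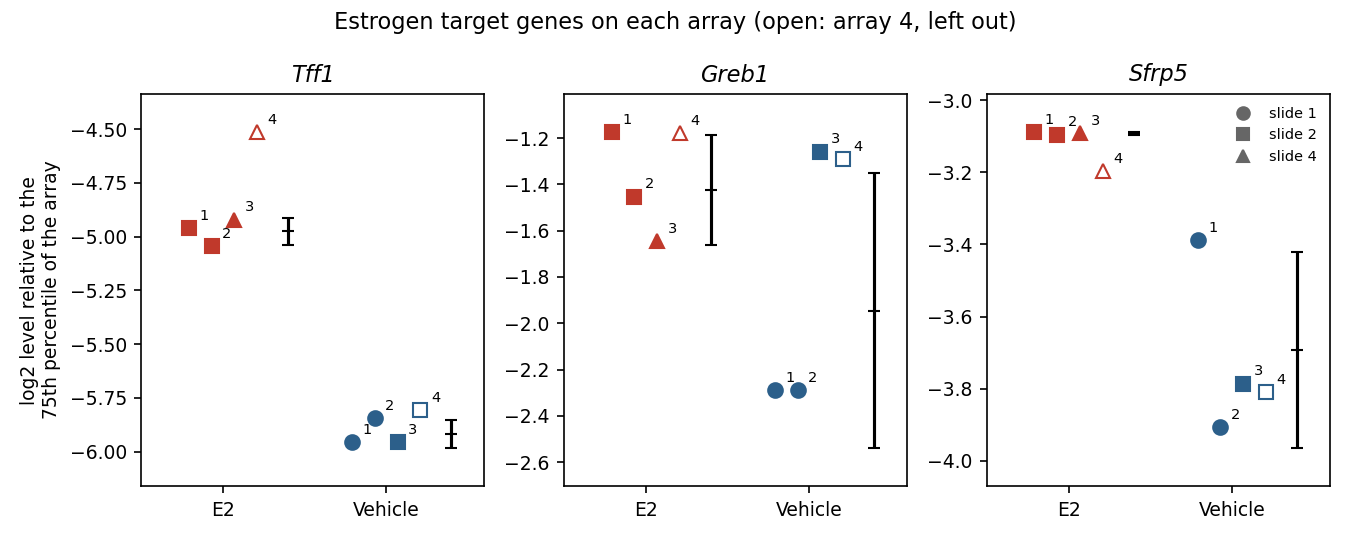
Levels of Tff1, Greb1 and Sfrp5, in log2 units above the array's own 75th percentile, on the E2 arrays (red) and vehicle arrays (blue), each point numbered by its array and shaped by its slide. Open points are E2-4 and Vehicle-4, which entered no mean, and black bars give the mean and SD of arrays 1 to 3. Tff1 and Sfrp5 are separated between the labels, and Vehicle-3 lies among the E2 arrays in Greb1.

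The arrays left out gave 1 further comparison for the markers, which share no array with the 6. Tff1 stood at -4.51 on E2-4 and -5.81 on Vehicle-4, a difference of 1.29. Sfrp5 stood at -3.20 on E2-4 and -3.81 on Vehicle-4, a difference of 0.61. Greb1 stood at -1.18 on E2-4 and -1.29 on Vehicle-4, a difference of 0.11. With 1 array each there is no test. E2-4 was on slide 4 with E2-3, and Vehicle-4 on slide 2 with Vehicle-3, E2-1 and E2-2. Slide and label therefore cannot be told apart in E2-4 minus Vehicle-4, here or below.

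Across all 16 arrays, the 4 labelled E2 had the highest Tff1 levels, from -5.05 to -4.51, and the other 12 ranged from -5.96 to -5.09. The top of the other arrays, Dex+E2-1 at -5.09, was 0.04 below E2-2, which is less than the spread among the E2 arrays. Sfrp5 ordered the arrays in the same way, at -3.20 to -3.09 on the 4 E2 arrays and -3.91 to -3.39 on the other 12. In Greb1 the 4 E2 arrays ranked 7, 8, 13 and 14 from the highest, and Vehicle-2 and Vehicle-1 were the lowest of the 16. Dex-1 and Dex-2, which shared slide 1 with them, had Greb1 at -1.39 and -1.30.

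Most estrogen receptor genes and cofactors were measured at levels that overlapped between the labels. Esr1, which encodes estrogen receptor alpha, exceeded background clearly on 0 of the 16 arrays by either of its 2 probes, and was not tested. Esr2, which encodes estrogen receptor beta, stood at -1.94, -1.997 and -1.88 on the E2 arrays, against -1.86, -1.77 and -1.88 on the vehicle arrays. Gper1, which encodes the membrane receptor GPER, stood at -2.01, -1.97 and -2.14 on the E2 arrays, against -1.83, -1.63 and -2.05 on the vehicle arrays. Gper1 overlapped between the labels. In Esr2 the highest E2 array lay just below the lowest vehicle array, and the difference was -0.11 with an unadjusted p of 0.379.

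Of the 15 listed receptor and cofactor genes, 13 were tested, 4 had a difference above 0 and 0 were called. The coactivator gene Ncoa1 stood at 3.32, 3.21 and 3.31 on the E2 arrays, against 3.55, 3.55 and 3.36 on the vehicle arrays (difference -0.21, unadjusted p = 0.048, limma adjusted p = 0.835). Esr2 and Ncoa1 were lower on the E2 arrays without overlap, as were 4.52% of all genes. Foxa1, a pioneer factor for the receptor in breast cells, lay in a damaged area of 1 array, described below. Gata3 was above background on 0 of 16 arrays.

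Over the whole table limma called 1 of 17776 genes, 0.00563% of those tested. An unadjusted p under 0.05 was reached by 711 genes, 4% of all, of which 165 were higher on the E2 arrays (0.928%) and 546 lower (3.07%). These counts depend on the arrays and the scaling. The total ran from 204 without E2-2 to 2550 without Vehicle-3. The split was 254 higher and 223 lower with all 4 arrays of each label, and 6661 higher and 2647 lower with normexp background correction. That correction left median signals of 901.5, 514.4 and 367.4 units on the E2 arrays, against 82.3, 87.8 and 367.3 on the vehicle arrays. Its counts rest on these unequal signals and are no plausible range. Of the 711, 550 were above background on all 6 arrays. The E2 and vehicle arrays did not overlap in 1559 genes (8.77%), 755 higher (4.25%) and 804 lower (4.52%). Differences were above 0 in 43.5% of genes, and the median difference over all genes was -0.03.

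The called gene was AK044724, a transcript whose accession the RefSeq table does not pair with a symbol. It stood at -4.48, -4.13 and -4.02 on the E2 arrays, against -8.08, -8.25 and -8.29 on the vehicle arrays, where it was not well above background. It was therefore at least 4.19-fold higher on the E2 arrays, with the vehicle arrays set at their lowest signal well above background (limma adjusted p = 0.0162). The gene passed the filter on dim probes only through the E2 arrays, where it was high, so this p-value depends in part on the filter. Without that filter 0 genes were called, with a smallest limma adjusted p of 0.102. The arrays left out did not repeat this gap, with -4.99 on E2-4 and -5.35 on Vehicle-4. On the other arrays AK044724 ran from -8.25 on Dex+E2-4 to -1.94 on Dex+E2-1, and 3 of them exceeded every E2 array. It was called without Vehicle-1 and was not called when any other 1 of the 6 arrays was left out, with adjusted p from 0.0478 to 0.29.

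The next 4 genes by unadjusted p were likewise above background in only 1 of the groups, and passed the filter through that group alone. AK048043, also without a symbol, was at least 2.52-fold higher on the E2 arrays (limma adjusted p = 0.329), and was above background on neither E2-4 nor Vehicle-4. AK011961 was at least 2.68-fold lower on the E2 arrays (adjusted p = 0.338). Septin1, which encodes a filament-forming GTPase, was at least 1.33-fold lower, and the unnamed NAP057043-1 at least 1.37-fold lower, both with an adjusted p of 0.835. In these last 3, E2-4 was above background and Vehicle-4 was not, the opposite order. Of all 17776 genes tested, 6 were above background on all E2 arrays and no vehicle array, and 53 on all vehicle arrays and no E2 array. Detection was not equal between the arrays. The lowest signal well above background was -5.82 on E2-2, against -6.35 to -6.17 on the vehicle arrays. E2-2 also had the fewest probes well above background, 58.6%, against 60.9% to 65.1% on the vehicle arrays. What part of the 2 counts this makes up was not tested.

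Among genes with a symbol that were above background on all 6 arrays, the 10 higher and 10 lower ones with the smallest unadjusted p and no overlap are described. All 20 had a limma adjusted p of 0.835. The 10 higher genes differed by 0.31 to 0.99, and the 10 lower genes by -1.16 to -0.28.

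Phf24, which encodes a PHD finger protein, stood at 0.07, 0.15 and 0.12 on the E2 arrays, against -0.25, -0.64 and -0.49 on the vehicle arrays, a difference of 0.58 ± 0.12 (SE). Its level was 0.02 on E2-4 and 0.29 on Vehicle-4, the opposite order. Utf1, a chromatin-bound factor of pluripotent cells, stood at -3.50, -3.53 and -3.64 on the E2 arrays, against -4.49, -4.46 and -4.07 on the vehicle arrays, a difference of 0.78 ± 0.19 (SE). Utf1 kept its order on the arrays left out, at -3.91 on E2-4 and -4.18 on Vehicle-4.

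Lmcd1, a LIM domain protein that represses GATA factors in heart muscle, stood at 3.11, 3.16 and 3.21 on the E2 arrays, against 2.95, 2.71 and 2.89 on the vehicle arrays. It differed by 0.31 ± 0.09 (SE), and stood at 3.08 on E2-4 and 2.98 on Vehicle-4. Ifitm3, which encodes an interferon-induced protein that blocks virus entry, stood at -0.09, -0.22 and -0.49 on the E2 arrays, against -0.58, -0.78 and -0.74 on the vehicle arrays. E2-3 lay only 0.09 above Vehicle-1 in Ifitm3, and E2-4 at -0.84 lay below Vehicle-4 at -0.72.

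The others were Sfrp5, the sperm protamine gene Prm1 (0.70), the zinc finger gene Zfp738 (0.72) and 3 odorant receptor genes, Olfr441 (0.99), Olfr414 (0.66) and Olfr446 (0.63). Odorant receptor genes form a large family of related sequences, so these probes may not separate their members. A second probe of Prm1 ran the other way, with a difference of -0.08 and no overlap.

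Of the lower genes, Golga4, a golgin that tethers vesicles at the Golgi, stood at 3.26, 3.22 and 3.34 on the E2 arrays, against 3.53, 3.71 and 3.66 on the vehicle arrays, a difference of -0.36 ± 0.08 (SE). Its 2 other probes overlapped between the labels, with differences of -0.09 and 0.03. Hspg2, which encodes the basement membrane proteoglycan perlecan, stood at 5.21, 4.97 and 4.98 on the E2 arrays, against 5.36, 5.61 and 5.41 on the vehicle arrays. The difference in Hspg2 was -0.40 ± 0.11 (SE).

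Afdn, encoding the junction protein afadin, differed by -0.28, Ehbp1, encoding an adaptor of endocytosis, by -0.34, and Ccar1, encoding a coactivator of nuclear receptors, by -0.45. Nbeal1 differed by -0.53, Ankhd1 by -0.38, Bend7 by -0.96, the lymphocyte adhesion gene Crtam by -1.08 and B130006D01Rik by -1.16. Nbeal1 was lower without overlap on its second probe too, by -0.42, whereas the second probe of Bend7 overlapped between the labels, with a difference of 0.07. In 7 of the 20 genes other probes were tested, and 6 of these 10 probes had the sign of the gene.

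The arrays left out share no sample with the choice of these genes. E2-4 minus Vehicle-4 was above 0 in 6 of the 10 higher genes and below 0 in 2 of the 10 lower genes, Crtam and Afdn. Over all genes it was above 0 in 55.3%. Of the 755 genes that were higher on the E2 arrays without overlap, it was above 0 in 62.8%, and of the 804 lower ones it was below 0 in 43.4%, where all genes gave 44.7%. Both left-out arrays were Per1-high and lay on different slides, with 1 array per label and no test.

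**Figure D2:**
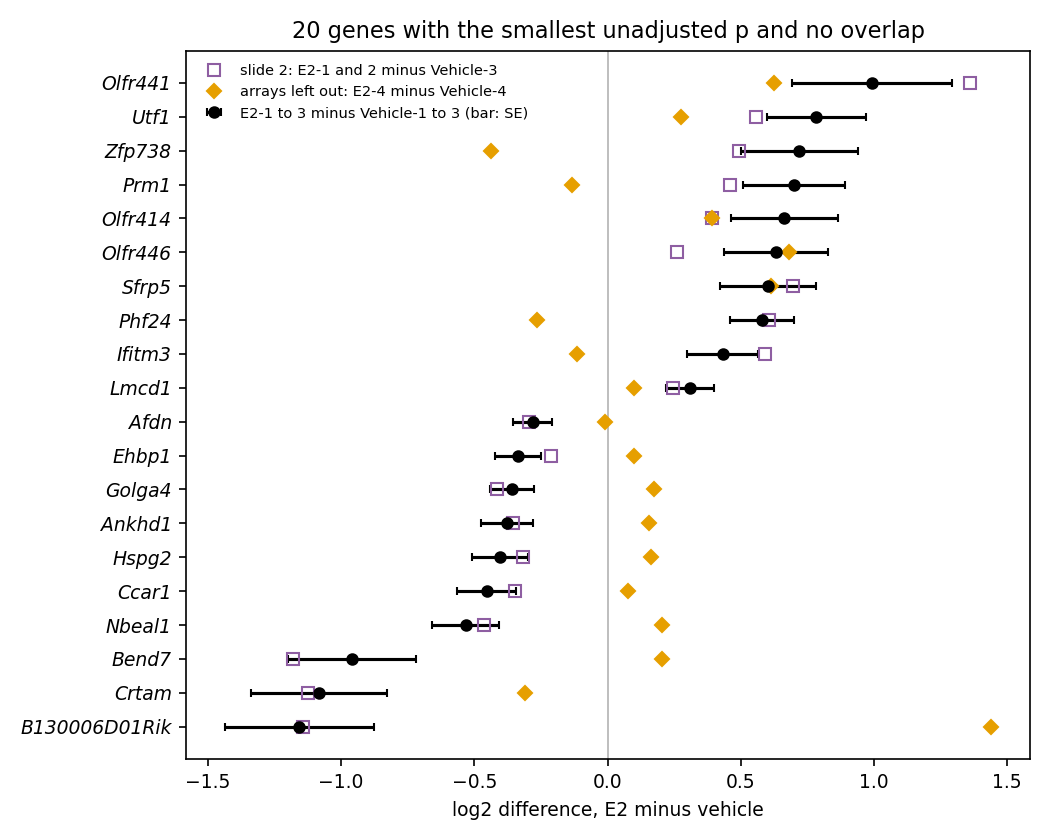
Log2 differences, E2 minus vehicle, of the 10 higher and 10 lower genes with the smallest unadjusted p. Only genes with a symbol, above background on all 6 arrays and without overlap between the 3 E2 and 3 vehicle arrays entered. Black points and bars are the difference over the 6 arrays and its SE, purple squares the difference on slide 2, and orange diamonds E2-4 minus Vehicle-4. The orange diamonds lie above 0 in 6 of the 10 higher genes and in 8 of the 10 lower genes.

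Of the 20 genes, 16 had promoter windows in the RefSeq table. The arm GGTCA was in a window of 7 and the full element in those of 0. Of all 27025 genes in the table, 38.36% had the arm in at least 1 window.

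Gene groups were described by counts and medians, beside 43.5% positive differences and a median of -0.03 over all genes tested. Except for the list of the 3 markers, list medians lay between -0.15 and 0.19, and 0 members of any list were called. The lists were chosen with earlier results of these arrays known.

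Among 24 tested genes that estradiol induces in other cells, 13 had a difference above 0, with a median of 0.02. Of the 24, 2 were higher without overlap, Xbp1 and the marker Tff1, where 4.25% of all genes were. Xbp1, a transcription factor of the unfolded protein response and an estrogen target in breast cells, stood at 1.54, 1.56 and 1.499 on the E2 arrays, against 1.37, 1.45 and 1.34 on the vehicle arrays, a difference of 0.15 with an unadjusted p of 0.105. On the arrays left out Xbp1 differed by 0.22 in the same direction. Pgr, encoding the progesterone receptor, was above background on 0 of 3 E2 arrays and 1 of 3 vehicle arrays.

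Cholesterol synthesis genes were positive in 20 of 24, with a median difference of 0.14 and 0 members without overlap, against 8.77% of all genes. Mvk, encoding mevalonate kinase, stood at 0.08, -0.06 and -0.09 on the E2 arrays, against -0.34, -1.03 and -0.02 on the vehicle arrays, and was named after its values were seen. Its vehicle arrays spanned a wider range than its E2 arrays, and Vehicle-2 was the lowest. On the arrays left out the median of the list was -0.04.

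Differences were above 0 in 3 of 21 interferon response genes (median -0.13), in 6 of 23 immediate early genes (median -0.15) and in 4 of 30 mitochondrial respiration genes (median -0.11). Egr1, a growth-induced zinc finger factor, stood at 0.58, 0.82 and 0.84 on the E2 arrays, against 1.02, 1.17 and 0.94 on the vehicle arrays (unadjusted p = 0.028, limma adjusted p = 0.835). Ifit3, an interferon-induced antiviral gene, stood at -2.36, -2.37 and -2.21 on the E2 arrays, against -2.15, -1.68 and -2.09 on the vehicle arrays. Atf3, a stress-induced factor, ran the other way in the immediate early list, by 0.20, and differed by -0.05 between E2-4 and Vehicle-4. On slide 2 the medians of these 3 lists were 0.0025, 0.09 and 0.11, so the direction did not hold within the slide.

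Glucocorticoid-induced genes, which the choice of Per1-low arrays bears on, were positive in 8 of 28 (median -0.10). Their median was 0.02 on slide 2, 0.06 for E2-4 minus Vehicle-4, and -0.15 to -0.05 with 1 array left out. Plin4, a lipid droplet protein gene, differed by -0.46 and Bcl6, a transcriptional repressor gene, by -0.33. Both were lower without overlap, as were 4.52% of all genes, but E2-4 minus Vehicle-4 was 0.39 in Plin4 and 0.09 in Bcl6. Fatty acid genes were positive in 11 of 25. Of these, Ppara, the nuclear receptor that governs fatty acid oxidation, stood at 0.34, 0.44 and 0.48 on the E2 arrays, against 0.55, 0.71 and 0.65 on the vehicle arrays.

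Sarcomere genes were positive in 14 of 25 (median 0.06), calcium handling genes in 7 of 21 (median -0.04) and ion channel genes in 8 of 21 (median -0.05). On slide 2 the medians were 0.12 for sarcomere, 0.13 for calcium handling and 0.18 for ion channel genes, so the last 2 turned direction. Csrp3, encoding the muscle LIM protein, stood at 1.18, 1.24 and 1.11 on the E2 arrays, against 1.39, 1.63 and 1.29 on the vehicle arrays (difference -0.26, unadjusted p = 0.048). Csrp3 was the only sarcomere gene of 25 without overlap, where 8.77% of all genes were without it. The Csrp3 difference was -0.30 between E2-4 and Vehicle-4 and -0.08 on slide 2. Wnt pathway genes were positive in 15 of 25, and 3 members, Sfrp5, Frzb and Wnt5b, were higher without overlap, where 4.25% of all genes were, Frzb on a probe above background on 1 of 3 vehicle arrays. Dkk3, a secreted protein of the Dickkopf family, was 1 of 2 that were lower without overlap, against 4.52% of all genes. Frzb stood at -6.09, -4.65 and -6.21 on the E2 arrays, against -6.27, -6.76 and -6.27 on the vehicle arrays, so only E2-2 stood well apart. E2-4 minus Vehicle-4 was -0.75 in Frzb and -0.11 in Wnt5b, against 0.61 in Sfrp5.

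**Figure D3:**
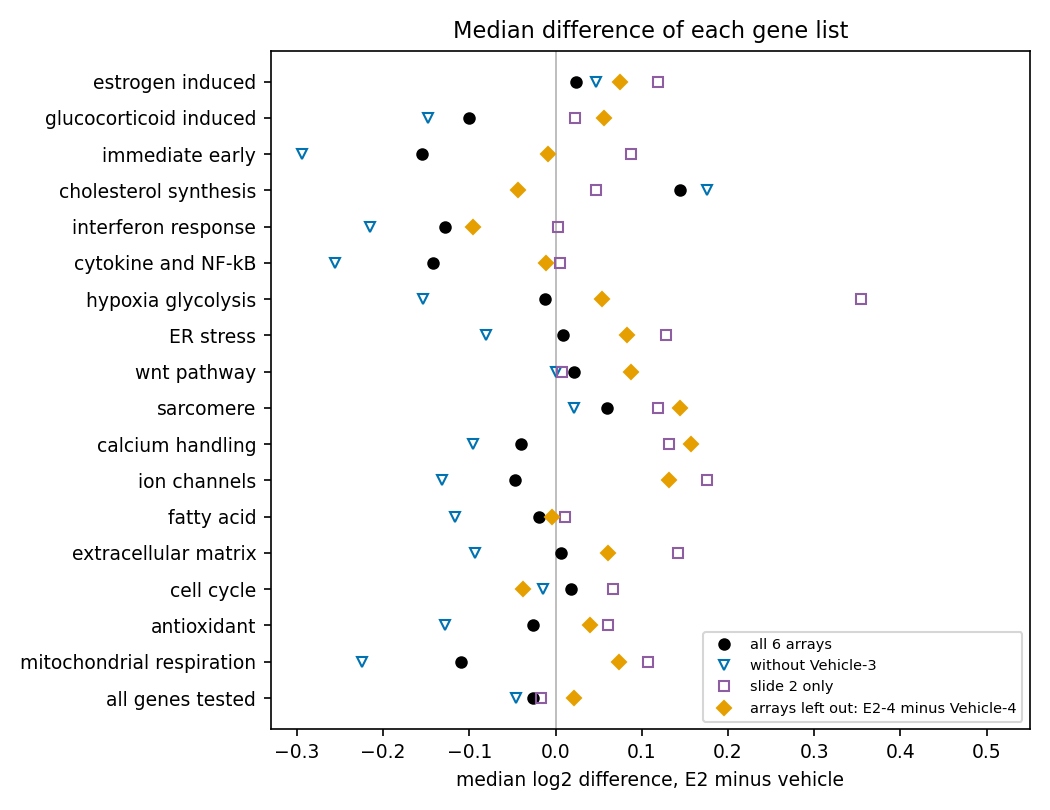
Median log2 difference, E2 minus vehicle, of 17 gene lists and of all genes tested. Black circles use all 6 arrays, blue triangles leave out Vehicle-3, purple squares use slide 2 only, and orange diamonds are E2-4 minus Vehicle-4. For glycolysis the median is -0.15 without Vehicle-3 and 0.35 on slide 2, and for mitochondrial respiration -0.22 and 0.11.

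The identity of the cells was checked on the 6 arrays. All 12 cardiomyocyte markers were tested and above background, at -1.28 to 8.01, including the atrial light chain genes Myl7 and Myl4 and the natriuretic peptide gene Nppa. The 4 ventricular markers were also all above background on the 6 arrays, with a median level of -4.17 to -3.63 per array. The calcium release channel gene Ryr2 lay in a damaged area of Vehicle-1, where it stood at -0.61, against 0.93 to 1.11 on the other vehicle arrays. Of other cell types, 5 of 8 fibroblast, 2 of 7 endothelial, 4 of 4 smooth muscle and 4 of 7 immune markers were tested. Pecam1 and Cdh5 of endothelium and Ptprc of leukocytes were above background on 0 of 16 arrays. The collagen gene Col1a1 stood at 5.31, 5.29 and 4.99 on the E2 arrays, against 5.44, 5.04 and 4.85 on the vehicle arrays, which overlap. Col1a1 lay far above the median of the 5 tested fibroblast markers, which was -3.33 to -2.99 per array. Lum of the same list was above background on 0 of 16 arrays. The 4 smooth muscle markers had a median level of 3.33 to 3.70 per array. Fewer cells of a type and less RNA per cell cannot be told apart in such bulk samples.

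Vehicle-3 was set beside Vehicle-1 and Vehicle-2. Areas of lost signal had to be set aside first. On Vehicle-3, 275 neighbouring spots in rows 44 to 89 and columns 1 to 9 of the grid of 532 rows and 85 columns were low. The bright ones among them had a median difference of -3.49 from the median of the other 15 arrays. On Vehicle-1 this held for 834 spots in rows 7 to 106 and columns 3 to 21, with a median difference of -2.23. No such area was found on Vehicle-2 or on any of the 3 E2 arrays. These areas, found after the data were seen, held the probes of 370 of the 17776 genes.

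**Figure D4:**
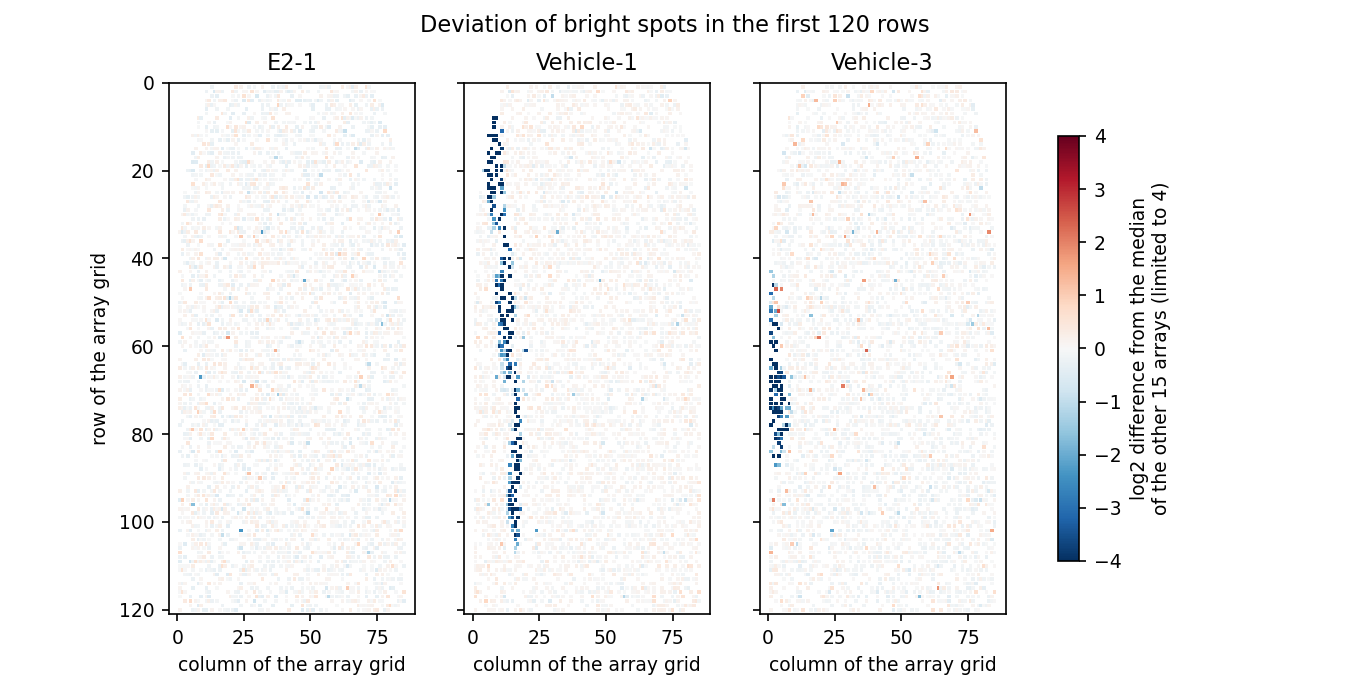
Bright spots in the first 120 rows of E2-1, Vehicle-1 and Vehicle-3, placed by column (x axis) and row (y axis) of the array grid and coloured by their log2 difference from the median of the other 15 arrays. Blue runs of spots on Vehicle-1 (rows 7 to 106) and Vehicle-3 (rows 44 to 89) are the areas of lost signal, and E2-1 has none.

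The 10 genes in which Vehicle-3 differed most from Vehicle-1 and Vehicle-2 all lay in its damaged area. Chchd10, encoding a mitochondrial protein, stood at -5.01 on Vehicle-3, 7.78 on Vehicle-1 and 7.78 on Vehicle-2, and the E2 arrays stood at 7.38 to 7.56. Gm6607, Snu13, Smtnl2, Snx12, Cnn2, Hadh, Ganab, Naa60 and Bex1 were lower on Vehicle-3 with differences of -10.6 to -6.70. With slide as a fixed block limma called 40 genes, and within slide 2 it called 41. All 40 and all 41 had probes in the damaged areas, and without these areas the counts were 0 and 0. Over all 6 arrays the fit without the areas called AK044724 alone.

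Outside the areas, Vehicle-3 was over 1 above the mean of Vehicle-1 and Vehicle-2 in 343 of 16399 genes above background on all 6 arrays, and over 1 below it in 71. Pag1, encoding an adaptor of Src-family kinases, stood at -3.20 on Vehicle-3, -5.96 on Vehicle-1 and -6.14 on Vehicle-2, and at -5.78 to -5.52 on the E2 arrays. Krt7, a keratin gene, stood at -4.10 on Vehicle-3, -2.08 on Vehicle-1 and -1.83 on Vehicle-2, and Ces2e, a carboxylesterase gene, at -3.18 on Vehicle-3, -1.52 on Vehicle-1 and -0.73 on Vehicle-2. The E2 arrays lay between Vehicle-3 and the other vehicle arrays in Krt7 and Ces2e, at -3.53 to -2.63 and at -2.75 to -1.86. Notch1, encoding the Notch receptor, stood at -5.66 on Vehicle-3, -4.52 on Vehicle-1 and -3.38 on Vehicle-2. These genes are among the 10 largest outside the areas, a set formed after the data were seen.

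Vehicle-3 was not the only array to stand apart. Outside the areas, 484 genes on Vehicle-1, 213 on Vehicle-2 and 414 on Vehicle-3 differed by over 1 from the mean of the other vehicle arrays, and 370 on E2-1, 78 on E2-2 and 136 on E2-3 did so from the other E2 arrays. The first principal component held 47.1% of the variance and set E2-2, E2-3 and Vehicle-1, at 33.3, 31.6 and 7.48, apart from E2-1, Vehicle-2 and Vehicle-3, at -8.95, -31.0 and -32.4. It did not follow the label.

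Glycolysis and respiration genes differed between the vehicle arrays. Of 26 hypoxia and glycolysis genes, 22 were lower on Vehicle-3 than on both other vehicle arrays, as were 27 of 29 mitochondrial respiration genes and 19 of 23 immediate early genes outside the areas, where all genes gave 40.15%. Bnip3, a hypoxia-induced mitophagy receptor gene, stood at 2.71, 2.82 and 1.90 on the E2 arrays, against 3.23, 2.24 and 1.70 on Vehicle-1, Vehicle-2 and Vehicle-3. Slc2a1, encoding the glucose transporter GLUT1, stood at 3.49, 3.73 and 3.44 on the E2 arrays, against 4.08, 3.82 and 3.19 on the vehicle arrays. Both genes, named after their values were seen, varied more within a label than between labels, and their mean differences were 0.09 for Bnip3 and -0.14 for Slc2a1.

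Fitting all 4 arrays of each label, E2-4 and Vehicle-4 included, gave 0 calls among 17768 genes, and 477 had an unadjusted p under 0.05. The share of probes well above background was 58.6% to 62.8% on the E2 arrays and 60.9% to 65.1% on the vehicle arrays. It was lowest on E2-2 and highest on Vehicle-3, and 0 probes were saturated.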

How the data were processed

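RNA of HL-1 cells was measured on 16 single-colour Agilent arrays, of which 3 labelled E2 and 3 labelled vehicle were compared. Per the file headers and the submitters' processing notes, the authors scanned Cy3 signal and quantified it with Agilent Feature Extraction 12, and the processed signal is a background-subtracted intensity. The deposited whole-series table holds log2 values with the same distribution on every array, and these sources do not give its method. It served only as an alternative.

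Controls and spots flagged as non-uniform or as population outliers were removed, replicate spots were averaged, and log2 intensity minus the 75th percentile of the array was used. That percentile was 448 to 500 units on the E2 arrays and 437 to 517 on the vehicle arrays, and the number of arrays limits the precision. A probe was kept when well above background on all 3 arrays of a group, which left 24394 probes. Among all 41174 probes, 129 lacked a value on at least 1 of the 6 arrays and were left out whatever their signal. The probe with the highest mean stood for a gene. The RefSeq table of GRCm38.p6 named 28223 of 41174 probes through accessions, and of 17776 genes tested 12964 had a symbol.

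Groups were fitted with limma 3.58.1 (lmFit, eBayes with a trend) in R 4.3.3, two-sided, with Benjamini-Hochberg adjustment and a threshold of 0.05. An exact permutation test of 3 arrays against 3 cannot go below 0.1. Alternatives were quantile and normexp normalization, the deposited table, filters, single probes, no trend, slide and replicate blocks, each array left out, all 4 arrays of a label, and all 16 arrays. Added after the data were seen were fits without areas of lost signal, with labels split by Per1, and with local background subtracted. The files used here gave median but not mean signals, so normexp ran on medians. A spot lay in an area of lost signal where at least 30% of the bright spots within 4 rows and columns were over 1 below the median of the other arrays on the log2 scale.

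The arrays, markers and lists were chosen with earlier results of these data known. Named are the 3 markers, the receptor list, the 5 genes with the smallest unadjusted p, the 10 higher and 10 lower genes described, up to 4 non-overlapping members of a list, and the 10 genes in which Vehicle-3 stood farthest from the other vehicle arrays. All other names, such as those of cell type markers, were chosen after their values were seen. A member of the receptor list is not reported here.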

Additional observations from a re-analysis of the deposited data

Results flagged for a closer look

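Sfrp5 on E2-4 stood apart from the other arrays of its label by Dixon's criterion, which chance meets in about 1 in 20 groups. It stood at -3.20, while the other E2 arrays spanned only -3.10 to -3.09, so a small gap met the criterion. The criterion was applied to Per1, Tff1, Greb1 and Sfrp5, each on the E2 and on the vehicle arrays. Per1 met the same criterion on E2-4, at 1.95, and on Vehicle-4, at 1.75. Since these arrays were left out for their Per1 levels, the choice fixed that result and it is given as a description only.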

How the results depend on the processing

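The count of 1 called gene was 1 under quantile normalization, the deposited log2 table, single probes, a variance prior without trend, slide as a random block and without the areas of lost signal. It was 0 without a filter on dim probes, with only probes well above background on all 6 arrays, with all 4 arrays of each label, with the spread shared over 16 arrays, and, among settings added after the data were seen, with labels split by Per1, with local background subtracted, and with slide as a fixed block or within slide 2 outside the areas. With 1 array left out the count was 0 to 1. It was 40 with slide as a fixed block and 41 within slide 2, all in the areas of lost signal. The replicate block gave 0 called and 412 genes at an unadjusted p under 0.05. The deviations of same-numbered arrays from their label means correlated at -0.326, -0.006 and -0.032. Deviations within a label sum to 0 and these included the areas of lost signal, so they cannot decide whether same-numbered arrays were paired.

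Counts at an unadjusted p under 0.05, 711 above, ran from 204 without E2-2 to 2550 without Vehicle-3 when 1 array was left out. They were 1094 without the filter, 1023 with quantile normalization, 1017 with the deposited table, 1183 with the spread shared over 16 arrays, and 1586 within slide 2 outside the areas. Normexp on median signals called 97 genes (82 higher, 15 lower), shifted the median difference to 0.138, and left even the first percentile of the signal at 887, 499 and 346 units on the E2 arrays, against 54.8, 59.8 and 342 on the vehicle arrays. It turned Lmcd1 to -0.22, Crtam to 1.24, B130006D01Rik to 1.16, Bend7 to 1.38, AK011961 to 1.43, Septin1 to 1.56 and NAP057043-1 to 1.53. Greb1 was -0.055 with slide as a fixed block and within slide 2, with and without the areas. Tff1 and Sfrp5 kept their direction in all alternatives run, 23 and 24, with adjusted p from 0.101 and 0.0641 upwards. Fits that left out an array or rested on slide 2 could not turn it, because every E2 array lay above every vehicle array in both genes. Of the list medians under alternatives, 578 moved by less than the spread between arrays and 70 by more. AK044724 lost its call in 16 of 23 alternatives. The cause was not tested, except that the calls with slide blocks lay in the areas. Signals near background limit Tff1 and the 5 smallest p-values.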
